A study of Mus musculus with 9 samples.

Results

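The genes for the proteins of the cytosolic ribosome were taken by name from a table of normalised counts of mouse embryos. Every name of the form Rpl or Rps with a number and an optional a, x, y, l or further digit was kept, together with Rplp0, Rplp1, Rplp2 and Rpsa, and names of pseudogenes with -ps were left out. This gave 87 of 20087 named genes, 52 named for the large subunit and 35 for the small subunit. Of these 84 were annotated as protein coding, and the other 3 (Rps3a2, Rps3a3 and Rps4l) carried another gene type in GENCODE vM21. Testing was limited to genes that reached 10 normalised counts in 3 or more of the 9 libraries, which left 85 members among 13343 genes. Rpl3l (mean 2.59) and Rps3a3 (mean 1.18) were not tested.

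The embryos were of the B6D2F1 background, and as zygotes they had received an injection of siRNA, short RNA that lowers the messenger RNA it matches. In the Hdac1/2 cKD group it matched Hdac1 and Hdac2, which encode histone deacetylases. In the Sin3a KD group it matched Sin3a, whose protein holds both deacetylases in a corepressor complex, and in the NC group it was a nonspecific control. All 3 groups share the injection, and the label of NC gives its genotype as wild type. Embryos were taken at E2.75, near the morula stage, and each library was made from the polyadenylated RNA of 60 pooled embryos, with 3 libraries per group. Nothing in the labels tells whether the pools of a group were collected separately, and the p-values therefore cover only the spread of these libraries, which may be technical. In pooled embryos, fewer cells of a type and less RNA per cell cannot be told apart.

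A ribosome holds 1 copy of nearly every one of its proteins, and the genes for them are scattered over the genome and are among the most strongly transcribed in growing cells. Their messenger RNAs start with a run of pyrimidines, the terminal oligopyrimidine motif, through which mTOR signalling and the La-related protein LARP1 set how well they are translated. They also left many processed pseudogenes, intronless copies made by reverse transcription, which match the parent almost base for base. Early mouse embryos live on maternal ribosomes at first and raise their own ribosome production after the genome is switched on at the 2-cell stage.

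Because a read from such a copy cannot always be told from a read of the parent, the sequences that decide how far the rows of the table can be separated are given first. They are 90 coding bases each from the GENCODE vM21 transcripts on GRCm38, written in coding direction, and capitals mark the bases that differ within a pair. Rpl3 (chromosome 15) and its copy Rpl3-ps1 (chromosome X) agreed at 1207 of 1209 aligned bases, and the window holds 1 of the differences.

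Rpl3: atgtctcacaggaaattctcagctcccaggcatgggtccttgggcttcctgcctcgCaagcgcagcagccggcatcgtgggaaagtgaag
Rpl3-ps1: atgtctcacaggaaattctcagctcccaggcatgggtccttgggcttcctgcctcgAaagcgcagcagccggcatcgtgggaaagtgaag

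Rpl10a (chromosome 17) and Rpl10a-ps1 (chromosome 1) were identical over 645 aligned bases, of which coding bases 4 to 93 are shown. Rpl7 (chromosome 1) and its copy Gm12174 (chromosome 11) agreed at 800 of 810 bases, and 4 differences fall in coding bases 448 to 537.

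Rpl10a: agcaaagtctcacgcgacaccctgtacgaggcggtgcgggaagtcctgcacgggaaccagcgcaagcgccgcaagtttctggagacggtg
Rpl10a-ps1: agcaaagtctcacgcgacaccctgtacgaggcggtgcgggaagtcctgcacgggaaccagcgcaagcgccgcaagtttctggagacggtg
Rpl7: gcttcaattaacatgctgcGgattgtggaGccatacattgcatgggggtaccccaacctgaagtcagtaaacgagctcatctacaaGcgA
Gm12174: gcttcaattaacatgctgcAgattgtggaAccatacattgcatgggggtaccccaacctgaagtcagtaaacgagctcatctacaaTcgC

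A true paralog is far easier to separate. Rps27 (chromosome 3) and Rps27l (chromosome 9) agreed at 192 of 252 coding bases, with 24 differences in the first 90.

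Rps27: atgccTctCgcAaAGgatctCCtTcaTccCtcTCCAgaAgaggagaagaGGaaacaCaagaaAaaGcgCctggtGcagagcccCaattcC
Rps27l: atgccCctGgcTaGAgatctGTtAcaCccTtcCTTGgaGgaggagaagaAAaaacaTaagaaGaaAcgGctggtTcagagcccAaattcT

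Near-identical copies held a large part of the reads of some ribosomal protein genes. A copy was any other row of the table with a mean of at least 10 whose transcripts held at least 20% of the 31-base words of the member's coding sequence, and 61 such rows were assigned to 39 members. In 8 members (Rps12, Rpl5, Rpl12, Rpl27, Rpsa, Rpl10, Rpl27a and Rps7) the copies held more than the member itself. Rps12, a small subunit protein, had a mean of 22.5 normalised counts over the 9 libraries in its own row, while Rps12-ps3, identical to it over all 396 coding bases, had 7657. Rpl5, which binds the 5S ribosomal RNA, had 621 in its own row and 15186 in the row of Gm15500, identical over 891 coding bases. Rpl12, a protein of the ribosomal stalk base, had 740 in its own row and 10310 in that of Gm10275. Over these aligned coding bases nothing separates Rps12 or Rpl5 from its copy, and the first 90 coding bases of each pair are shown.

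Rps12 (chromosome 10) and Rps12-ps3 (chromosome 19): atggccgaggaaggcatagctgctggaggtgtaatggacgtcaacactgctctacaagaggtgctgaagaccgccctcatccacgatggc
Rpl5 (chromosome 5) and Gm15500 (chromosome 7): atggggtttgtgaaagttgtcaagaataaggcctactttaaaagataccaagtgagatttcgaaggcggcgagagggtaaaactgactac

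**Figure D1:**
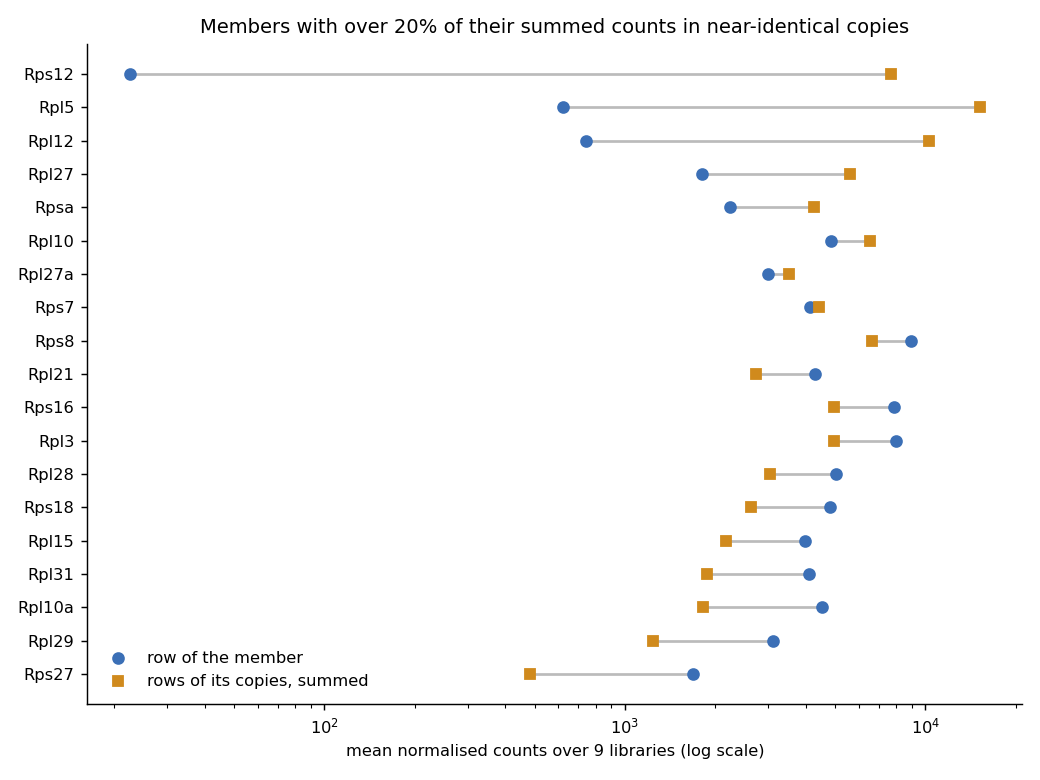
Mean normalised counts over 9 libraries (log scale) of each member whose copies held over 20% of the summed counts, with a circle for the row of the member and a square for the sum of its copies. Rps12 (22.5), Rpl5 (621) and Rpl12 (740) lie far to the left of their copies, at 7657, 15186 and 10310.

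Levels of different members were compared per kilobase of the annotated principal transcript, since a longer messenger RNA gives more fragments. With copies added, the 85 tested members had a median of 8761 normalised counts per kb, with quartiles at 5685 and 12622. Rpl41, a very short protein of the large subunit, was highest at 30950 per kb. The next were the acidic stalk protein Rplp1 at 25755 per kb and Rps2, which lies at the mRNA entry channel, at 22086 per kb. With the member's row alone the median was 7483 per kb and the lowest value was that of Rps12, at 38.5 per kb. Per library rather than per kb, Rpl4, a long protein of the large subunit, had 24424 ± 730.2 normalised counts in Hdac1/2 cKD, 23473 ± 2174 in Sin3a KD and 26153 ± 1880 in NC (SD, n = 3 each). With copies added, low but not the lowest levels per kb were found for the Rpl22 paralog Rpl22l1 (493 per kb), Rps15a (762 per kb) and Rps25 (848 per kb). For Rps15a the annotated transcript is 5179 bases long, so its level per kb depends on that length. The annotated transcript of Rps25 has 1280 bases, and no row met the rule for a copy of it, so its value is that of its own row.

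**Figure D2:**
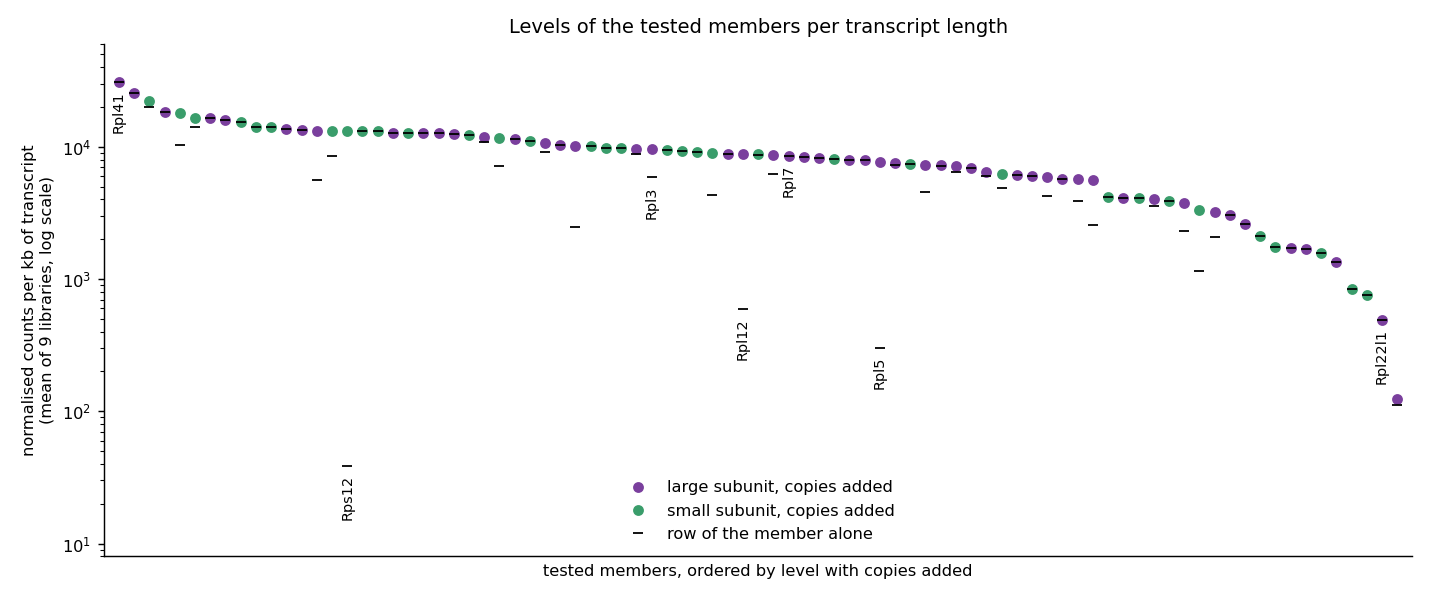
Mean normalised counts per kilobase of transcript (log scale) of the 85 tested members, ordered by the level with copies added (circles), with the row of the member alone as a dash. The quartiles are 5685 and 12622 per kb, the genes named in the plot include Rpl41 at the upper end, and dashes far below their circle are members with most of their counts in copies.

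The targeted genes first checked the labels. Hdac1 was at 1052, 1007 and 770 normalised counts in the 3 Hdac1/2 cKD libraries, against 6245, 4925 and 5536 in NC. Hdac2 was at 193, 350.3 and 371 in Hdac1/2 cKD, against 2347, 2020 and 2492 in NC. Sin3a was at 354, 520.1 and 418 in Sin3a KD, against 1779, 1215 and 1459 in NC. Each target was lower in every library of its knockdown than in every NC library, and Hdac1 was also lower in Sin3a KD (1333, 2597 and 1802). The depth estimated from the smallest step in each library ran from about 8400000 reads in NC replicate 3 to about 16800000 in NC replicate 1. The markers of the morula and early blastocyst differed widely in level. Pou5f1, a pluripotency factor, lay between 13955 and 16141 normalised counts in Hdac1/2 cKD. It lay between 19180 and 20930 in Sin3a KD and between 19065 and 19477 in NC. Sox2, on the same list, lay only between 4.66 and 36.6 over the 9 libraries. Cdx2 was at 155 to 205 in Hdac1/2 cKD and at 955 to 1461 in NC.

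Ribosomal protein messenger RNA took up a similar part of all 3 groups. The 87 members together made up 4.62%, 4.62% and 4.99% of the table's total in Hdac1/2 cKD, 4.64%, 4.50% and 4.33% in the Sin3a KD libraries and 4.65%, 4.27% and 5.42% in NC. The groups overlapped, and NC alone held both the lowest and the highest library. As group means this was 4.74% ± 0.21 for Hdac1/2 cKD, 4.49% ± 0.15 for Sin3a KD and 4.78% ± 0.58 for NC (SD, n = 3 each). With copies added it was 5.55% ± 0.27 for Hdac1/2 cKD, 5.23% ± 0.18 for Sin3a KD and 5.63% ± 0.69 for NC.

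The members moved together from library to library within a group. NC replicate 3 had the highest NC value in 72 of 85 tested members, against 34.2% of all tested genes, and NC replicate 2 had the lowest NC value in 72 of 85, against 35.3% of all tested genes. Among the Hdac1/2 cKD libraries replicate 3 was highest in 59 of 85. Among the Sin3a KD libraries replicate 3 was lowest in 64 of 85, against 36.7% of all tested genes. NC replicate 3 is also the shallowest library, and the part of depth in this was not tested. Since NC enters both comparisons with a knockdown, the spread of its 3 libraries touches both, and the results below are also given without NC replicate 2 where that changes them.

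**Figure D3:**
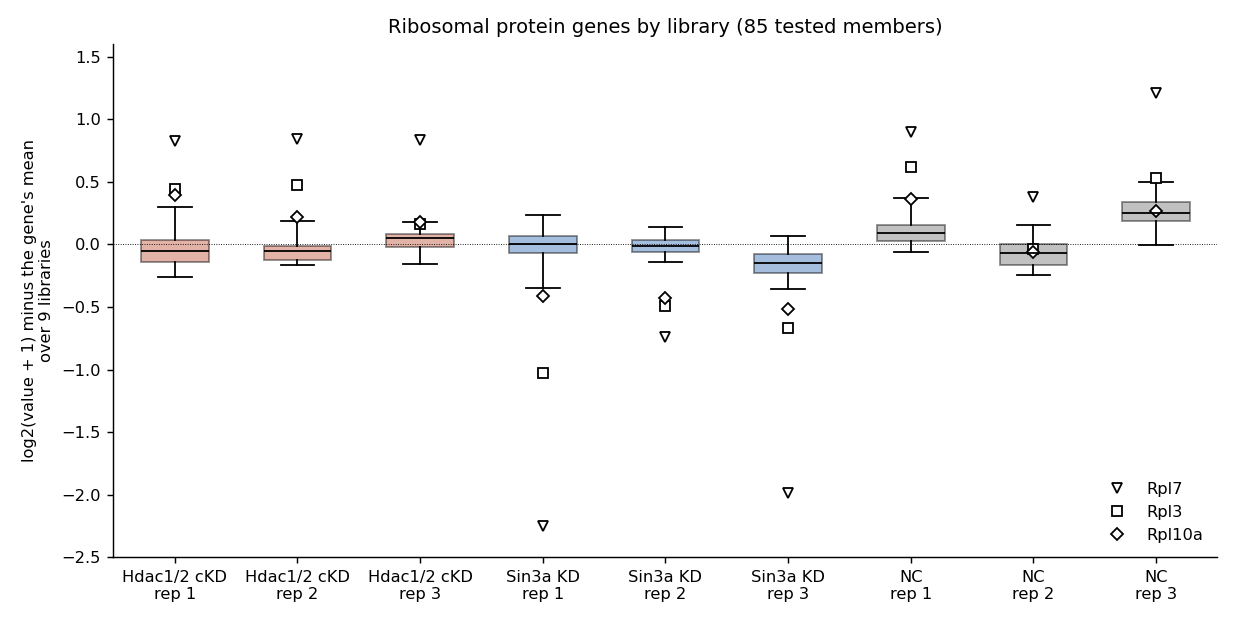
log2(value + 1) of the 85 tested members minus each member's mean over 9 libraries, as 1 box per library (line, median; box, quartiles; whiskers, 5th and 95th percentile), with Rpl7, Rpl3 and Rpl10a marked. The NC replicate 3 box is the highest, the Sin3a KD replicate 3 box the lowest, and the 3 marked genes lie below the lower whisker in all Sin3a KD libraries.

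In Sin3a KD against NC, 3 large subunit genes fell: Rpl7, Rpl3 and Rpl10a. They were called at an adjusted p below 0.05 in limma, with Benjamini-Hochberg adjustment over all 13343 tested genes, and no member rose. This is 3 of 85 members (3.53%), against 7.96% of all tested genes called in either direction, 4.36% called lower and 3.60% called higher. All 3 called members are named for the large subunit, and 0 of the 34 tested small subunit members were called in limma.

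Rpl7, an early-binding protein of the large subunit that contacts the 5S particle (chr1:16101295-16104662 in GRCm38), fell furthest. It had 1591, 4545 and 1911 normalised counts in Sin3a KD, against 14084, 9819 and 17468 in NC. All Sin3a KD libraries lay below the lowest NC library, and replicate 2 was the highest of the Sin3a KD libraries. The mean was 2682 ± 1621 in Sin3a KD and 13790 ± 3833 in NC (SD, n = 3 each), so Sin3a KD stood at 19.5% of NC. The log2 fold change was -2.48 ± 0.40 (SE), with an adjusted p of 0.0155 in limma.

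Rpl3, which lines the entrance to the peptidyl transferase centre of the ribosome (chr15:80077791-80091868), had 3651, 5281 and 4686 normalised counts in Sin3a KD, against 11393, 7245 and 10760 in NC. The groups did not overlap, and the means were 4539 ± 825 in Sin3a KD and 9799 ± 2234 in NC (SD, n = 3 each). The log2 fold change was -1.10 ± 0.18 (SE, adjusted p = 0.0054 in limma). Its copy Rpl3-ps1 had 2707, 3109 and 1980 normalised counts in Sin3a KD, against 5781, 4586 and 6960 in NC, with a log2 fold change of -1.16 (adjusted p = 0.0035 in limma).

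Rpl10a, a protein of the L1 stalk, the mobile arm beside the exit site for transfer RNA (chr17:28328471-28331033), had 3314, 3282 and 3094 normalised counts in Sin3a KD, against 5696, 4239 and 5312 in NC. All Sin3a KD libraries lay below the lowest NC library. The log2 fold change was -0.64 ± 0.11 (SE, adjusted p = 0.0059 in limma). Its near-identical copy Rpl10a-ps1 had 1156, 1385 and 773 normalised counts in Sin3a KD, against 2335, 1823 and 2920 in NC, a log2 fold change of -1.11 (adjusted p = 0.0228 in limma).

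With each copy's values added to its parent, Rpl7, Rpl3 and Rpl10a were called again. The log2 fold changes were then -2.48 for Rpl7, -1.11 for Rpl3 and -0.77 for Rpl10a. The copy of Rpl7, Gm12174, had a mean of 7.91 ± 5.53 normalised counts in Sin3a KD and 10.5 ± 2.56 in NC (SD, n = 3 each), a small share of the sum. Among the other copies, Gm10275, the copy of Rpl12, fell (log2 fold change -0.41, adjusted p = 0.0414 in limma), and Rpl12 with this copy added was at -0.39 (adjusted p = 0.0544).

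**Figure D4:**
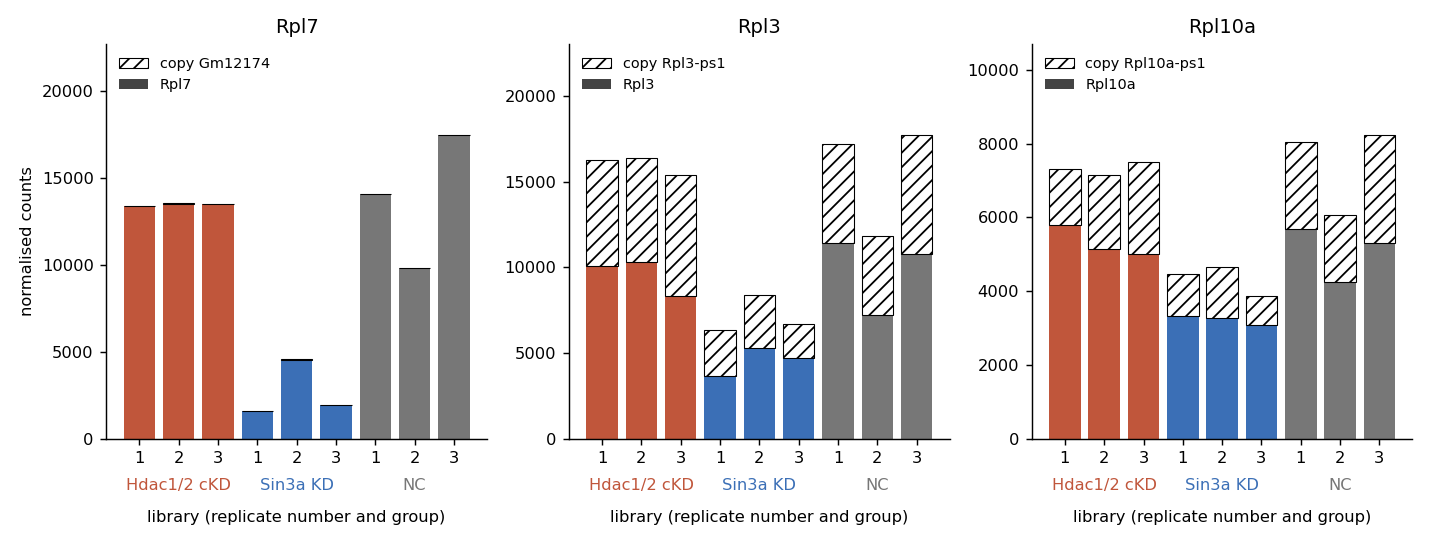
Normalised counts of Rpl7, Rpl3 and Rpl10a in each of the 9 libraries (filled bars) with the counts of their near-identical copies stacked on top (hatched). Sin3a KD libraries are lower than all other libraries in member and copy sum, from 1591 to 4545 in Rpl7 against 9819 to 17468 in NC.

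These 3 calls were lost under some settings while the fold changes kept their sign. Without limma's trend and robust options the adjusted p was 0.0523 for Rpl7, 0.0583 for Rpl3 and 0.0671 for Rpl10a, and with the sequencing lane as a factor it was 0.159, 0.0863 and 0.0772. Leaving out Sin3a KD replicate 1 and NC replicate 1, which are alone on their lanes, gave 0.125, 0.0750 and 0.0842. Rpl7 was also not called with only the 2 groups fitted (0.0589), or without Sin3a KD replicate 3 (0.0658), NC replicate 1 (0.0547) or NC replicate 3 (0.0549). Within lane 3, where 2 Sin3a KD libraries met NC replicate 3, the log2 differences were -2.57 for Rpl7, -1.11 for Rpl3 and -0.74 for Rpl10a.

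The other 82 tested members were not called. Across all 85 the median log2 fold change in Sin3a KD against NC was -0.13, against 0.03 over all tested genes, and 72 of 85 members lay below 0, against 47.3% of all tested genes. Without Rpl7, Rpl3 and Rpl10a the median was -0.12. The highest log2 fold change was 0.33, that of Rps27 in its own row, without its near-identical copy Rps27rt. In 12 members every Sin3a KD library lay below every NC library, against 13.3% of all tested genes, and in none did every Sin3a KD library lie above, against 13.9%. At an unadjusted p below 0.05 limma gave 17 of 85 members, all lower, against 23.9% of all tested genes in either direction. Without NC replicate 2, whose values are low in most members, 9 members were called (10.6%, against 11.5% of all tested genes), and the added ones were Rps4x, Rpl9, Rps3a1, Rps3, Rpl17 and Rps20, at log2 fold changes of -0.35 to -0.47.

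Several of these have roles outside peptide synthesis. Rpl5 and Rpl11, which bind MDM2 and restrain it when ribosome production fails, were at log2 -0.49 (adjusted p = 0.110 in limma) and -0.10 in Sin3a KD against NC. Rpl5 with its copy Gm15500 added was at -0.28 (adjusted p = 0.0731). Rpl23 and Rpl26, which also act on the MDM2 and p53 axis, were at -0.13 and -0.14, and Rps6, the substrate of S6 kinase, was at -0.27 (adjusted p = 0.146).

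In Hdac1/2 cKD against NC, 0 of 85 members were called in limma, against 15.6% of all tested genes in either direction, 7.80% lower and 7.81% higher. The limma test gave 9 members at an unadjusted p below 0.05, all 9 lower, which is 10.6% of members against 29.6% of all tested genes in either direction, and no other tool was run. The nearest to the threshold was Rps3a2, a gene of the RPS3A family annotated as a processed pseudogene, with 935, 993 and 1310 normalised counts in Hdac1/2 cKD, against 1405, 1449 and 1673 in NC. Its log2 fold change was -0.50 ± 0.16 (SE, adjusted p = 0.0518). Next was Rpl7l1, a paralog of Rpl7 known from large subunit assembly, with 4043, 3956 and 4145 in Hdac1/2 cKD, against 4910, 4667 and 5199 in NC. Its log2 fold change was -0.28 ± 0.09 (SE, adjusted p = 0.0600). Neither gene's groups overlapped. The values of Rps3a2 are of its own row. Its sequence was identical to that of Rps3a1, another member, at 788 of 792 aligned bases. The mean over the 9 libraries was 1244 in the row of Rps3a2 and 12785 in that of Rps3a1. Since both are members, neither was added to the other as a copy. How far the reads of the pair were separated was not tested.

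The 3 genes that fell in Sin3a KD were not called in Hdac1/2 cKD. Rpl7 had 13385, 13526 and 13506 normalised counts in Hdac1/2 cKD, inside the NC range of 9819 to 17468, and a log2 fold change of 0.01 (adjusted p = 0.995 in limma). Rpl3 had 10081, 10295 and 8308 in Hdac1/2 cKD, at log2 -0.01 (adjusted p = 0.967). Rpl10a had 5801, 5133 and 5010 in Hdac1/2 cKD, at log2 0.07 (adjusted p = 0.714). All 3 overlapped NC.

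Over all 85 members the median log2 fold change in Hdac1/2 cKD was -0.10, against 0.03 over all tested genes, and 72 of 85 lay below 0, against 47.4% of all tested genes. The highest log2 fold change was 0.42, that of Rps27, whose groups overlapped. In 11 members every Hdac1/2 cKD library lay below every NC library, against 16.0% of all tested genes, and in 1 (Rpl28) every one lay above, against 17.1%. Without NC replicate 2, 5 members were called (5.88%, against 16.3% of all tested genes), all lower: Rps4x, Rpl6, Rpl41, Rps19 and Rps3, at log2 fold changes of -0.30 to -0.38. Without NC replicate 3, Rps27 was called higher at 0.81. These values are of its own row. Its copy Rps27rt, which held 100% of the 31-base words of its coding sequence, had 663, 1275 and 87 normalised counts in NC. With this copy added and all 9 libraries kept, the adjusted p of Rps27 was 0.948 in limma. In lane 2, where 2 Hdac1/2 cKD libraries met NC replicate 2, the median of the members was 0.03, and in lane 3, with 1 library each, it was -0.23.

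The size of these medians depended on the scaling of the libraries, and the sign did so in Hdac1/2 cKD only. With libraries scaled to equal totals, the median of all tested genes shifted by 0.11 in Hdac1/2 cKD against NC and by 0.09 in Sin3a KD against NC. The members' median then was 0.01 in Hdac1/2 cKD, with 41 of 85 below 0, and -0.03 in Sin3a KD, with 55 of 85 below 0. Taken relative to the median of all tested genes, the members lay at -0.13 in Hdac1/2 cKD under both scalings and at -0.16 in Sin3a KD under both. Of all genes called in Hdac1/2 cKD against NC, 1041 of 2083 were lower as deposited and 676 of 2063 (32.8%) with equal totals. In Sin3a KD against NC, 54.8% of the called genes were lower as deposited and 36.5% with equal totals.

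**Figure D5:**
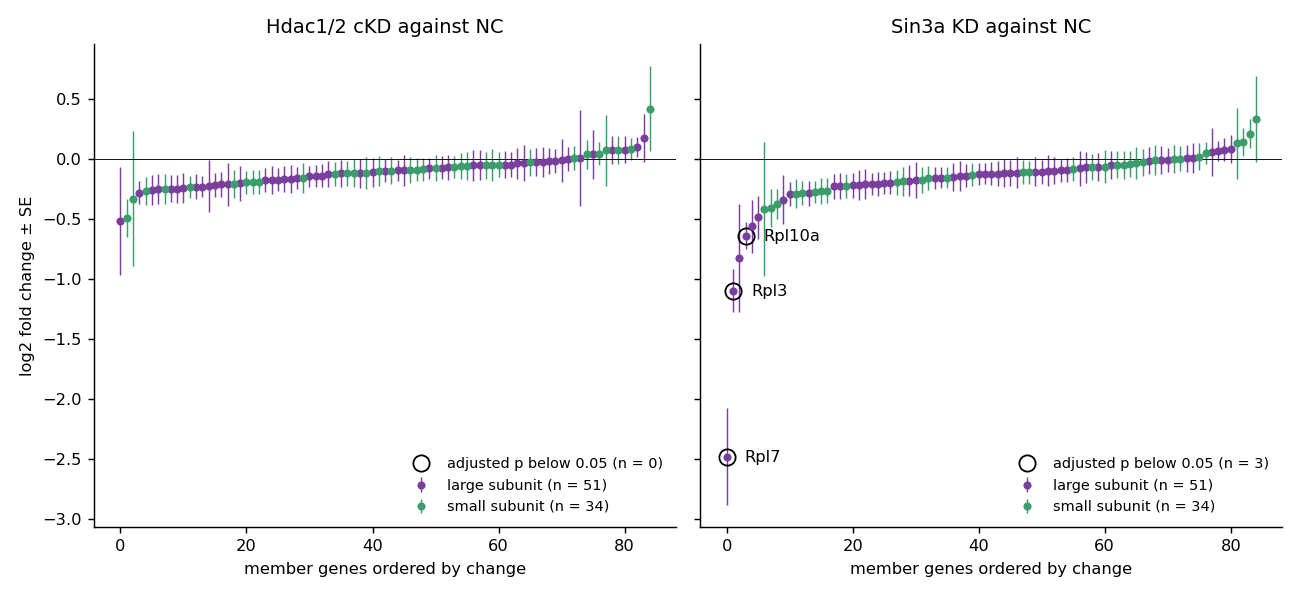
log2 fold change with its standard error of the 85 tested members in Hdac1/2 cKD against NC (left) and Sin3a KD against NC (right), each ordered by change, with large and small subunit members in different colours and called members ringed. No member is ringed on the left, and Rpl7 (-2.48), Rpl3 (-1.10) and Rpl10a (-0.64) are ringed on the right.

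Set directly against each other, Hdac1/2 cKD and Sin3a KD differed in the same 3 members, all higher in Hdac1/2 cKD. This is 3 of 85 members, against 17.3% of all tested genes in either direction, 8.49% higher and 8.78% lower. The log2 difference, Hdac1/2 cKD minus Sin3a KD, was 2.49 ± 0.40 (SE, adjusted p = 0.0066 in limma) for Rpl7, 1.08 ± 0.18 (adjusted p = 0.0016) for Rpl3 and 0.72 ± 0.11 (adjusted p = 0.0008517) for Rpl10a. The copies Rpl3-ps1 (1.33, adjusted p = 0.0003147) and Rpl10a-ps1 (0.87, adjusted p = 0.0355) were also higher in Hdac1/2 cKD. Rpl3 and Rpl10a were called under all 20 alternative settings and Rpl7 under 19, the exception being lane as a factor (adjusted p = 0.0949). In 8 members every Hdac1/2 cKD library lay above every Sin3a KD library, against 20.4% of all tested genes, and in 4 every one lay below, against 19.3%. The median of all members was 0.03, against 0.01 over all tested genes. Rplp0, the core of the ribosomal stalk, had 10861, 10671 and 10594 normalised counts in Hdac1/2 cKD, against 12765, 12011 and 13608 in Sin3a KD, without overlap (log2 -0.25, adjusted p = 0.0926). Rps15a, a small subunit protein, had 3504, 3548 and 3850 in Hdac1/2 cKD, against 4234, 4534 and 4362 in Sin3a KD, also without overlap (log2 -0.27, adjusted p = 0.142). Without NC replicate 2, which enters here only through the shared variance, both were called. There 5 of 85 members were called (5.88%), against 19.3% of all tested genes. Over the 20 alternative settings Rplp0 was called in 3 and Rps15a in 2.

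The paralogs and their parents other than Rpl7 and Rpl3 were not called. Rpl10l, a retrogene paralog of Rpl10 with 84.7% coding identity, had 1104, 1245 and 1276 normalised counts in Hdac1/2 cKD, against 1646, 1464 and 1448 in Sin3a KD, with no overlap between the groups (log2 -0.33, adjusted p = 0.0669 in limma, and 0.0472 without NC replicate 3). Over the 20 alternative settings Rpl10l was called in 2. Its parent Rpl10 had a mean of 4624 ± 382 in Hdac1/2 cKD and 4766 ± 229 in Sin3a KD (SD, n = 3 each). Rpl36al, at 87.7% coding identity to Rpl36a, had 3435 ± 148 in Hdac1/2 cKD and 4110 ± 536 in NC (log2 -0.25, adjusted p = 0.155). Rpl22l1, at 71.2% identity to Rpl22, had 228 ± 17.6 normalised counts in Sin3a KD and 294 ± 72.2 in NC, and its log2 fold change was -0.34 (adjusted p = 0.339).

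Further paralogs were not called either. Rps27l, a p53 target related to Rps27, had 2039 ± 146 in Hdac1/2 cKD, 2128 ± 73.9 in Sin3a KD and 1948 ± 265 in NC. Rps27 itself ran from 729 to 2334 within NC alone, against 1789 to 1841 in Hdac1/2 cKD. Its near-identical copy Rps27rt ran from 87 to 1275 within NC. Rpl39l, which shares 130 of 153 coding bases with Rpl39, had 1353 ± 53.2 in Hdac1/2 cKD, 1299 ± 60.6 in Sin3a KD and 1525 ± 144 in NC. Rps4l, at 79.9% identity to the coding sequence of Rps4x, had 1791 ± 136 in Hdac1/2 cKD, 2087 ± 243 in Sin3a KD and 2157 ± 157 in NC (SD, n = 3 each). Rpl3l, the muscle paralog of Rpl3, was listed at 0 in 3 libraries and reached at most 8.67 normalised counts.

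Promoter letters shared by many members were counted in the RefSeq promoter table for GRCm38.p6, which holds 250 bases before and 50 after the annotated start and matched 64 of the 87 members. CCGGAA, the core of sites for ETS factors such as GABP, stood on either strand in 54.7% of the matched members, against 16.7% of all promoters and 30.7% of those of tested genes. A pyrimidine run of at least 5 letters beginning with C at the annotated start was found in 20.3% of members, against 3.01% of all promoters and 2.96% of those of tested genes. A run of at least 7 from a C between 20 bases before and 30 after the start was found in 59.4% of members, against 25.0% of all and 25.9% of tested genes. AAGATGGC, the core letters of a YY1 site, was found in 9.38% of members, against 3.19% of all promoters and 5.16% of those of tested genes. CACGTG was found in 9.38% of members, against 8.09% of all and 11.7% of tested genes, and TATAAA in 10.9% of members, against 15.7% of all and 8.51% of tested genes, so for these motifs the members lay on different sides of the 2 backgrounds. A match is a description of letters and not a bound site, the ends of CCGGAA and AAGATGGC share letters and can overlap, and the first letters of TTCCGG can overlap a pyrimidine run.

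The windows below run from 10 bases before to 20 after the annotated start in 4 members whose CCGGAA, or its reverse complement, lies downstream of the start, within the window. The letters in capitals are the match.

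Rpl11 (chr4:136053374-136053403, minus strand): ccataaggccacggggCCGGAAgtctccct
Rpl26 (chr11:68901556-68901585, plus strand): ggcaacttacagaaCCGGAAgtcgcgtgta
Rps27 (chr3:90213629-90213658, minus strand): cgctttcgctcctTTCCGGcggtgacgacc
Rps27l (chr9:66946076-66946105, plus strand): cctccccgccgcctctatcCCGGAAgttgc

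Other genes of translation and ribosome production were taken from lists. Of 38 translation initiation factors 7 fell and 0 rose in Hdac1/2 cKD against NC, with a median log2 fold change of -0.21, and the median was -0.14 in Sin3a KD, against 0.03 over all tested genes in each. Of all tested genes 7.80% were called lower in Hdac1/2 cKD and 4.36% in Sin3a KD. Eif5b, the subunit joining factor, was at log2 -0.48 (adjusted p = 0.0074 in limma) and Eif2s2, a part of the initiator tRNA carrier eIF2, at -0.39 (adjusted p = 0.0262). In Sin3a KD 5 initiation factors fell and 0 rose, among them Eif5 (-0.64, adjusted p = 0.0035) and the helicase Eif4a1 (-0.55, adjusted p = 0.0111). Calls in this list and those below are from the main fit, and whether they hold under the alternative settings was not tested. Over those settings all genes called in Sin3a KD against NC ran from 36 (no trend or robust options) to 1538 (without NC replicate 2). They numbered 1062 in the main fit and 94 with lane as a factor. Of the called genes 54.8% were lower as deposited, and 36.5% with libraries scaled to equal totals. The lists were chosen with earlier results of these data known, the difference between lists was not tested, and the summed level of the initiation factors was 250882 to 263041 in Hdac1/2 cKD, 231692 to 263286 in Sin3a KD and 277715 to 307215 in NC.

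Of 20 chaperones and assembly factors for ribosomal proteins, 5 fell in Hdac1/2 cKD and 2 in Sin3a KD, and none rose against NC, while 7.80% and 4.36% of all tested genes were called lower in these comparisons. The median log2 fold change was -0.19 in Hdac1/2 cKD and -0.17 in Sin3a KD. Ipo7, an importer of ribosomal proteins into the nucleus, had a mean of 8978 ± 354 in Hdac1/2 cKD, 14323 ± 1566 in Sin3a KD and 18264 ± 1619 in NC (SD, n = 3 each), with log2 fold changes of -1.02 (adjusted p = 2.557e-05) and -0.35 (adjusted p = 0.0403). Tsr2, the escort of RPS26, was at -0.52 in Hdac1/2 cKD (adjusted p = 0.0034). Npm1, a nucleolar chaperone, had 31894 ± 4493 in Sin3a KD and 45590 ± 5049 in NC, at -0.52 (adjusted p = 0.0106).

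Of 45 genes of ribosome biogenesis and RNA polymerase I, 7 fell in Hdac1/2 cKD (7.80% of all tested genes were called lower) and 4 in Sin3a KD (4.36%), and none rose. The median log2 fold change was -0.13 in Hdac1/2 cKD and -0.01 in Sin3a KD. Rrn3, which brings RNA polymerase I to ribosomal DNA, had 2050 ± 274 in Sin3a KD and 3664 ± 484 in NC (log2 -0.84, adjusted p = 0.0030). Taf1d, a part of the promoter factor of RNA polymerase I, was at -0.93 in Hdac1/2 cKD (adjusted p = 0.0093) and at -0.84 in Sin3a KD (adjusted p = 0.0271). Gnl3, the nucleolar GTPase nucleostemin, was at -0.69 in Sin3a KD (adjusted p = 0.0054) and was higher in Hdac1/2 cKD than in Sin3a KD by 0.61 (adjusted p = 0.0029).

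Among 21 other messenger RNAs of the terminal oligopyrimidine class, 2 fell in Hdac1/2 cKD and 4 in Sin3a KD. For this and the lists below, 7.80% of all tested genes were called lower and 7.81% higher in Hdac1/2 cKD against NC. In Sin3a KD against NC these shares were 4.36% and 3.60%. Lists overlap: Eif4a2 is also an initiation factor above, and Npm1 is also among the chaperones. Tpt1, the translationally controlled tumour protein, had 3513 ± 392 in Sin3a KD and 4781 ± 630 in NC (log2 -0.44, adjusted p = 0.0367), and Eif4a2 was at -0.68 (adjusted p = 0.0076). Of 9 elongation factors, Eef2k, the kinase of elongation factor 2, rose in both knockdowns, by 2.03 in Hdac1/2 cKD (adjusted p = 0.0032) and by 1.32 in Sin3a KD (adjusted p = 0.0493), and Eef1e1 fell in Sin3a KD by 0.59 (adjusted p = 0.0462). Of the ribosomal proteins outside the naming pattern, 0 were called in limma and 0 had an unadjusted p below 0.05 in any comparison. Rack1, listed as Gnb2l1, a scaffold on the small subunit, was at log2 -0.18 in Hdac1/2 cKD (adjusted p = 0.285) and -0.21 in Sin3a KD (adjusted p = 0.246). Of 76 tested mitochondrial ribosomal protein genes, 2 fell in Hdac1/2 cKD, and 2 rose and 2 fell in Sin3a KD.

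Of 19 regulators of ribosomal protein transcripts, 4 fell and 1 rose in Hdac1/2 cKD, and 2 fell in Sin3a KD. The shares of all tested genes were 7.80% called lower and 7.81% higher in Hdac1/2 cKD, and 4.36% lower in Sin3a KD. Myc, which drives ribosome production in many cells, had a mean of 89.8 ± 24.2 normalised counts in Hdac1/2 cKD, 355 ± 67.4 in Sin3a KD and 585 ± 112 in NC (SD, n = 3 each). Its log2 fold change in Hdac1/2 cKD against NC was -2.71 (adjusted p = 1.577e-05 in limma). In this comparison 0 of 85 ribosomal protein genes were called, against 15.6% of all tested genes. Of the 85, 72 lay below 0 as deposited, against 47.4% of all tested genes, and 41 with libraries scaled to equal totals. A link to Myc was not tested. Zbtb17, a partner of Myc, was at -0.71 in Hdac1/2 cKD (adjusted p = 0.0040) and at -0.52 in Sin3a KD (adjusted p = 0.0345). Rheb, the activator of mTOR, was at -0.47 in Hdac1/2 cKD (adjusted p = 0.0262) and at -0.67 in Sin3a KD (adjusted p = 0.0099). Trp53, which encodes p53, rose by 0.54 in Hdac1/2 cKD (adjusted p = 0.0049).

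Stage and cell type markers moved beside these results as follows, and their part in them was not tested. Of 16 morula and early blastocyst markers 12 fell in Hdac1/2 cKD and 4 in Sin3a KD, and none rose against NC. The shares of all tested genes called lower were 7.80% and 4.36%. The summed level of these markers was 48957 to 52539 in Hdac1/2 cKD, 67250 to 74771 in Sin3a KD and 71059 to 79801 in NC. Of 14 tested oocyte transcripts and 10 tested 2-cell transcripts 0 were called in limma, and at an unadjusted p below 0.05 there were 0 and 2 in Hdac1/2 cKD against NC and 0 and 1 in Sin3a KD against NC. The oocyte sum was 692 to 746 in Hdac1/2 cKD, 656 to 719 in Sin3a KD and 615 to 785 in NC. Its largest part was Ccnb1ip1, with 201 normalised counts in Sin3a KD replicate 1 to 435 in NC replicate 3. The 2-cell sum was 413 to 628 in Hdac1/2 cKD, 533 to 598 in Sin3a KD and 551 to 702 in NC. Of 4 tested cumulus cell markers 0 were called in limma, with 1 at an unadjusted p below 0.05 in Hdac1/2 cKD and 2 in Sin3a KD against NC, and a sum of 5523 to 5568 in Hdac1/2 cKD, 5701 to 6309 in Sin3a KD and 4931 to 6581 in NC, nearly all of it Nr5a2, which embryos also express. Fst was at 0 in 8 of 9 libraries, and the spermatogenic markers reached a sum of at most 21.1, with Prm1 at 0 in 8 of 9 libraries.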

How the data were processed

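Per the submitters' processing notes, Salmon counted the reads, DESeq2 normalised them and the build was GRCm38, with no version or annotation stated there. The authors deposited 1 table of signal values, here called normalised counts, with 1 column per library. In each library 65.9% to 79.1% of low values were whole multiples of a common step, to within 0.1, so whole reads were not recovered and no count model was run. The step gave depths of about 8400000 to 16800000 reads, and no interval is drawn from them. Per the labels' protocols, RNA of RFP and GFP was put in ahead of extraction. Its values were not analysed here, and total RNA per embryo is therefore not known. A line without a name held 0.00543% to 0.00896% of each total and was left out.

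Genes reaching 10 in 3 or more libraries were fitted as log2(value + 1), which understates changes of low genes, with 1 mean per group over all 9 libraries in limma 3.58.1 under R 4.3.3 (moderated variances, trend and robust). Benjamini-Hochberg adjustment ran over all 13343 genes of a comparison, and an adjusted p below 0.05 was a call. The fit was tested on simulated data. NC serves in both knockdown comparisons. Lanes were read from the library descriptions. Same-numbered replicates did not deviate together (correlations -0.02 to 0.06), so no pairing was used.

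Members and gene lists were chosen with earlier results of these data known. The rule for names took the targets, the called members, the 4 highest and 4 lowest log2 fold changes per comparison among members with a mean of at least 50, the 5 highest and 5 lowest means, paralogs with their parents, 6 members with further roles, and up to 4 called genes per list. Rps18, Rpsa and Rpl8 were named by it and gave no call, and some results it named are not reported here. Other names, such as those by level per kb, were chosen after their values were seen. Adding copies to members and leaving out the libraries alone on their lanes were chosen after seeing the data. Lengths and coding sequences came from GENCODE vM21, using the principal transcript. The lists were oocyte, 2-cell, morula, cumulus and spermatogenic markers, and the translation and ribosome lists named in the results.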

Additional observations from a re-analysis of the deposited data

Results flagged for a closer look

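For 3 of 85 members the change in Hdac1/2 cKD differed from that in Sin3a KD by the direct test of the difference. These are 3.53% of members, against 17.3% of all tested genes called in this comparison. Rpl7 was 2.49 higher on the log2 scale in Hdac1/2 cKD than in Sin3a KD (adjusted p = 0.0066 in limma), Rpl3 was 1.08 higher (adjusted p = 0.0016) and Rpl10a was 0.72 higher (adjusted p = 0.0008517). Each was higher in 3 of 3 Hdac1/2 cKD libraries than in all Sin3a KD libraries. Within lane 3, where 1 Hdac1/2 cKD library met 2 Sin3a KD libraries, the differences were 2.20, 0.74 and 0.65. With lane as a factor Rpl7 was not called (adjusted p = 0.0949 in limma).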

How the results depend on the processing

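Over 20 alternative settings, the named genes gave 2277 values, of which 2140 kept direction and call, 26 became called, 15 lost a call and 96 changed sign while called in neither; no called value turned round. All genes called in Hdac1/2 cKD against NC numbered 2083, against 1369 with plain variances (no trend, not robust), 1318 without the 2 libraries whose lane held no other, and 1271 to 2170 with any 1 library left out. In Sin3a KD against NC they numbered 1062, against 36 with plain variances, 611 with only the 2 groups compared, 94 with lane fitted, 51 without those 2 libraries, and 337 to 1538 with 1 library left out. In Hdac1/2 cKD against Sin3a KD they numbered 2304, against 1002 with lane fitted, 1384 without those 2 libraries, and 1426 to 2748 with 1 library left out.

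Members called in Hdac1/2 cKD against NC were 0, against 2 with a mean of at least 50 (Rps3a2 and Rpl7l1), 1 with pseudocount 10, 1 with lane as a factor, and 0 to 5 with 1 library left out. In Sin3a KD against NC they were 3, against 0 with plain variances, 0 with lane fitted, 0 without those 2 libraries, and 2 to 9 with 1 library left out. In Hdac1/2 cKD against Sin3a KD they were 3, against 7 with only the 2 groups compared and 3 to 6 with 1 library left out. The 7 were 8.24% of members, against 23.1% of all tested genes. The 6, without NC replicate 3, were 7.06%, against 20.6%. Against NC, the 5 in Hdac1/2 cKD and the 9 in Sin3a KD came without NC replicate 2. They were 5.88% and 10.6% of members, against 16.3% and 11.5% of all tested genes. The 2 with a mean of at least 50 were 2.38%, against 21.1% of the genes tested there. With the replicate block, a pairing the correlations of -0.02 to 0.06 do not bear out, members called were 1 (Rps3a2), 3 and 3, and all genes called were 2140, 1046 and 2372. The calls of Rps3a2 are of its own row, whose sequence is near-identical to that of Rps3a1.

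The members' median log2 fold change in Hdac1/2 cKD against NC was -0.10, against 0.0122 with equal totals and -0.20 to -0.0211 with 1 library left out. In Sin3a KD against NC it was -0.13, against -0.0316 with equal totals, -0.25 with lane fitted and -0.22 to -0.0578 with 1 library left out. In Hdac1/2 cKD against Sin3a KD it was 0.03, against 0.19 with lane as a factor and -0.02 to 0.06 with 1 library left out. The cause of these shifts was not tested. Where a group keeps 1 library on a lane, the fit assumes that it varies like the others. Depth limits low rows such as Rps12 and Rpl3l, and the row of Rps12 is further limited by Rps12-ps3, whose coding sequence is identical. Intervals cover these libraries only.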
